A study of Mus musculus with 12 samples.

Results

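The receptors for dopamine, serotonin, noradrenaline and histamine were followed through the array data as one group of 30 genes. They comprised 5 dopamine receptor genes, 14 serotonin receptor genes, 8 adrenergic receptor genes and 3 histamine receptor genes. The list was drawn up with earlier results of these data known, and probes were matched to it by gene name alone. All 30 members were found among the 21154 genes named on the array, with 42 probes between them. Gene expression was measured in the whole cerebellum and the entire hippocampus of adult mice, with 3 arrays for each genotype and region and 12 in all. En2-/- mice carry a deletion in the gene of Engrailed 2, a homeobox transcription factor that patterns the midbrain and hindbrain. WT mice were their littermates from heterozygous matings. Both genotypes were 3 to 5 months old, of both sexes, and carried the mutation or its WT allele on a mixed 129Sv x C57BL/6 and outbred background that had been crossed at least 5 times to C57BL/6. The deletion is constitutive and takes the homeobox, so that it was present in every tissue. The question asked here was which of these receptors are transcribed in each region, and whether their levels differed between En2-/- and WT mice.

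Monoamines and histamine are released by small groups of neurons in the brainstem, midbrain and hypothalamus, whose axons reach most of the brain. Most of the receptors are made by the cells that receive these axons, and some also by the source neurons as autoreceptors, whereas the synthetic enzymes and plasma membrane transporters mark mainly the source. All members are receptors that act through G proteins except Htr3a and Htr3b, which are subunits of an ion channel opened by serotonin. D1-type dopamine receptors (Drd1a, Drd5), beta-adrenergic receptors, Htr4, Htr6, Htr7 and Hrh2 couple to the stimulatory G protein and raise cyclic AMP, D2-type dopamine receptors, alpha-2 adrenergic receptors, the Htr1 and Htr5 families and Hrh3 couple to inhibitory G proteins, and alpha-1 adrenergic receptors, the Htr2 family and Hrh1 couple to Gq and phospholipase C.

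On these arrays transcripts are captured by probes of 60 bases, and a spot shines more brightly the more labelled copies of its transcript it has bound. Between 62.3% and 73.0% of the 43379 spots on an array were well above background, and no spot was saturated. The labelled regions held against their markers. All 6 Purkinje cell genes and all 6 granule cell genes tested were higher in the cerebellum and all 6 genes of hippocampal principal neurons were higher in the hippocampus, in both genotypes (limma, adjusted p under 0.05). The En2 probe gave a mean log2 intensity of 14.15 in WT and 14.46 in En2-/- cerebellum. It checks no label, because the deletion takes the homeobox and, by the study's account, leaves the 3′ untranslated sequence on which this probe was designed.

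The members that couple to G proteins share one protein fold, and some probes lie on the same landmark of it. In 4 of the 42 member probes an open reading frame held the codons of the NPxxY motif, which closes the seventh transmembrane helix in this receptor class, against 0.257% of all 41174 probes. These probes are shown because they lie in coding sequence by that motif and because Htr6, Drd4 and Adra2a carry results described further on. They are written 5′ to 3′ as given in the array annotation with the 15 bases of the motif in capitals, and positions are in mm9.
Drd4, chr7:148480683-148480742, plus strand: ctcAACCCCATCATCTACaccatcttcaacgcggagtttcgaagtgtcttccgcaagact
Htr6, chr4:138617683-138617742, minus strand: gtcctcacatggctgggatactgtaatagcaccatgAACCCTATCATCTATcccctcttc
Adra1d, chr2:131372160-131372219, minus strand: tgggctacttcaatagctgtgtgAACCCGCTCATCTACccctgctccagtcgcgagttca
Adra2a, chr19:54121975-54122034, plus strand: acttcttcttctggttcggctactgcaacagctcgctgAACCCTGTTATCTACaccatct
The first, the second and the third are the probes that stood for their genes in all tests. The fourth is the most upstream of 3 Adra2a probes and was not the one that stood for the gene.

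A gene was counted as detected in a region where, in WT or in En2-/- mice, all 3 arrays read its brightest probe as well above background. By this rule 20 receptor genes were detected in the cerebellum and 21 in the hippocampus. The 20 genes of the cerebellum were all among the 21 of the hippocampus, so that 20 of 30 were detected in both, beside 69.7% of all genes on the array. Dopamine receptors were detected as 4 of 5 genes in each region, adrenergic receptors as 6 of 8 and histamine receptors as 2 of 3. Serotonin receptors were detected as 8 of 14 genes in the cerebellum and 9 of 14 in the hippocampus.

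The gene detected in the hippocampus alone was Htr6, a serotonin receptor that raises cyclic AMP. Its log2 intensity was 5.25, 5.23 and 5.12 on the WT hippocampus arrays and 3.52, 2.67 and 3.08 on the WT cerebellum arrays. It was well above background on all of the former and on none of the latter, so that the ratio is a bound, and Htr6 was at least 3.02-fold higher in WT hippocampus on these values (limma adjusted p = 1.82e-05). Htr6 passed the filter only through WT hippocampus, where it is high, so that this p is no independent support for the difference. After normexp background correction the log2 difference was −0.47 in WT mice in place of −2.11, below that bound, and in En2-/- mice it was −0.30 in place of −1.56 and did not pass. On the En2-/- hippocampus arrays it was 4.66, 5.03 and 4.45, below every WT array and well above background on none. The bound on that difference was at least 1.32-fold lower in En2-/- hippocampus, and the difference of the means did not pass the test (limma adjusted p = 0.221, rank product permutation P = 0.0718).

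The other 9 members were detected in neither region by this rule, which sets an upper limit to their intensity and does not show that the transcripts were absent. Drd3, Htr3b and Adrb3 were well above background on none of the 12 arrays, with log2 intensities of at most 3.72, 2.07 and 2.87. Drd3 is known for the ventral striatum and Adrb3 for fat tissue. Htr1b and Htr1d, the serotonin autoreceptors of axon terminals, were well above background on cerebellum arrays alone, Htr1b on 2 WT and 1 En2-/- arrays and Htr1d on 2 of each. Adra2b was well above background on 2 WT arrays and 1 En2-/- array of each region. Htr2b and Hrh2 passed on 1 WT cerebellum array each, Htr2b also on 1 En2-/- hippocampus array, and Htr4 on 1 WT hippocampus array.

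**Figure D1:**
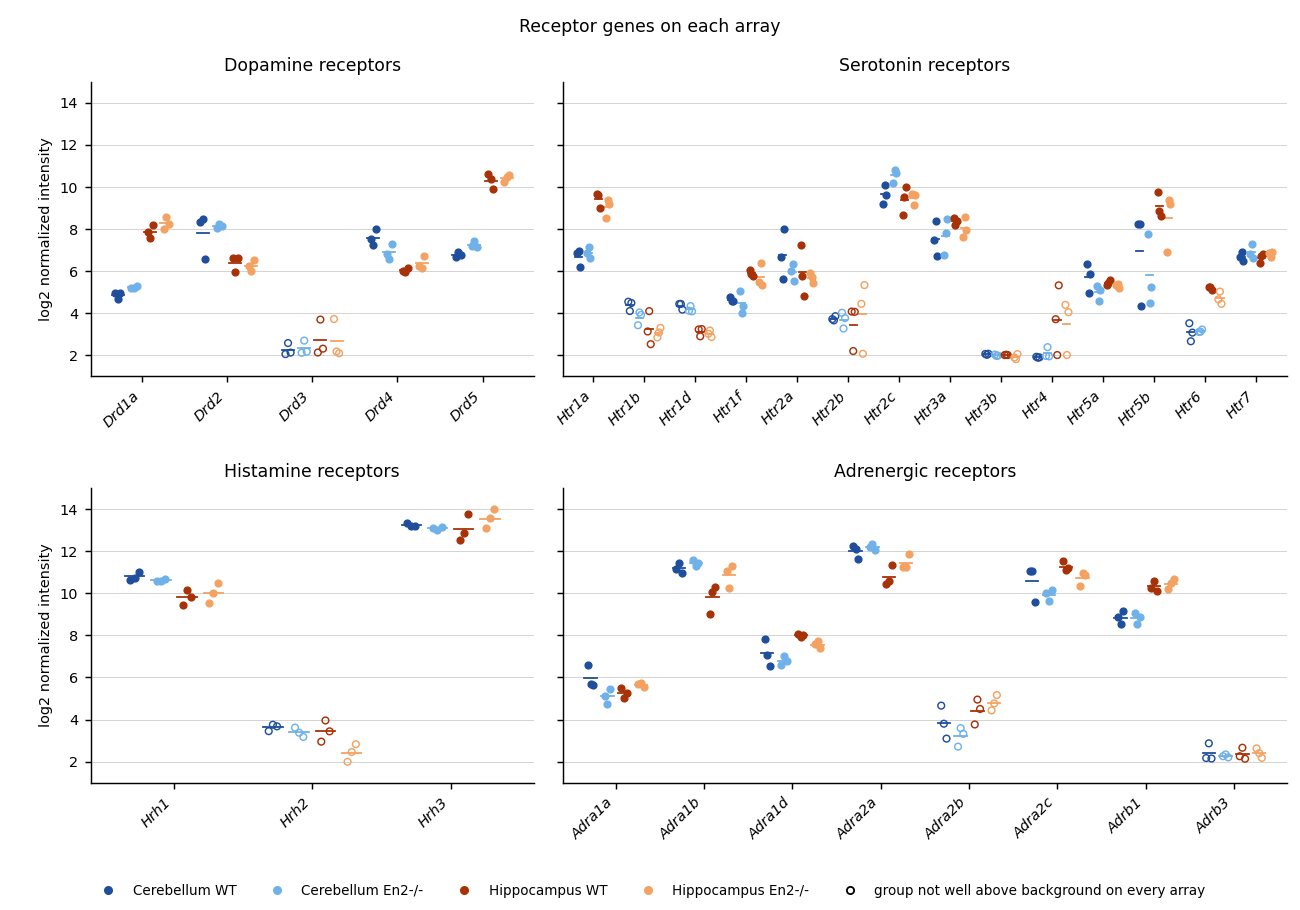
Log2 normalized intensity (vertical axis) of the probe that stood for each of the 30 receptor genes on each of the 12 arrays, by class; points are arrays, dashes are means of 3 arrays, and open points mark groups with at least 1 array not well above background. Levels of different probes cannot be set against each other. Drd1a, Drd5 and Htr1a separate by region with no overlap, whereas WT and En2-/- arrays of a region mostly overlap.

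Regional differences were larger than genotype differences, among the receptors as among all genes. In WT mice 12 of the 21 receptor genes tested differed between cerebellum and hippocampus in a linear model over the 12 arrays (limma, Benjamini-Hochberg adjusted p under 0.05), beside 32% of all 15821 genes. Of these 12, 5 were higher in the cerebellum and 7 in the hippocampus, beside 17.3% and 14.7% of all genes. The median size of the log2 difference was 1.21 for the receptor genes and 0.45 for all genes. In En2-/- mice it was 0.76 and 0.40. Between genotypes the median size was 0.35 for the receptor genes in each region, beside 0.20 (cerebellum) and 0.26 (hippocampus) for all genes. In tissue RNA, more cells of a type and more transcript per cell cannot be told apart. By the study's methods the mice of each genotype gave both tissues. The labels do not match these, so that the model treated the 12 arrays as separate. In En2-/- mice 8 receptor genes passed, 2 higher in the cerebellum and 6 in the hippocampus, beside 26.9% of all genes, of which 12.6% were higher in the cerebellum and 14.3% in the hippocampus. In both genotypes 7 receptor genes passed in the same direction, beside 19.2% of all genes, namely Drd2 toward the cerebellum and Drd1a, Drd5, Htr1a, Htr1f, Htr6 and Adrb1 toward the hippocampus. The files of the 2 regions were extracted from the scans in separate runs, so that the run and the region cannot be told apart, and Htr6 entered the test through its level in WT hippocampus alone, being not well above background on any array of either En2-/- group.

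The D1-type dopamine receptors had the largest regional differences of the group. Drd5 was at 6.68, 6.92 and 6.76 on the WT cerebellum arrays and at 10.63, 10.37 and 9.90 on the WT hippocampus arrays. It was 11.4-fold higher in WT hippocampus (log2 difference of cerebellum minus hippocampus −3.51, SE 0.20, limma adjusted p = 1.23e-07) and 9.0-fold higher in En2-/- hippocampus (−3.17, SE 0.20, limma adjusted p = 3.70e-07). The second Drd5 probe was well above background on all 3 WT hippocampus arrays, on only 1 En2-/- hippocampus array and on no cerebellum array. Its log2 difference was −2.20 in WT and −1.83 in En2-/- mice. Drd1a was at 4.97, 4.66 and 4.95 in WT cerebellum and at 7.84, 7.58 and 8.18 in WT hippocampus. This was an 8.03-fold difference in WT mice (limma adjusted p = 3.67e-07) and 8.24-fold in En2-/- mice (limma adjusted p = 4.30e-07). The size of these differences depended on how the values were made. On the authors' processed values the log2 difference of Drd5 was −2.55 in WT and −2.32 in En2-/- mice, and after normexp correction it was −2.87 in WT mice. For Drd1a it was −1.30 and −1.48 on the authors' values, and −1.64 and −1.83 after normexp correction, all of which passed. No cerebellum array of either genotype reached the lowest hippocampus array for either gene.

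D2-type dopamine receptors went the other way. Drd2, which is also the autoreceptor of dopamine neurons, was at 8.32, 8.49 and 6.58 in WT cerebellum and at 6.60, 5.97 and 6.62 in WT hippocampus. It was 2.63-fold higher in WT cerebellum (limma adjusted p = 0.0212) and 3.73-fold higher in En2-/- cerebellum (limma adjusted p = 0.00457), where all arrays lay between 8.07 and 8.22. The third WT cerebellum array was as low as hippocampus arrays. Without the first or the second WT cerebellum array, or without the second WT hippocampus array, the WT difference did not pass (1.13, 1.05 and 1.18 on the log2 scale, beside 1.40 with all arrays), and without the third WT cerebellum array it was 2.01. In En2-/- mice the Drd2 difference was 1.27 after normexp correction in place of 1.90, and passed. Drd4 was at 7.55, 7.26 and 7.98 in WT cerebellum and at 6.00, 5.94 and 6.16 in WT hippocampus, a 2.96-fold difference with no overlap (limma adjusted p = 0.000402). In En2-/- mice the Drd4 difference was 0.51 on the log2 scale and did not pass (limma adjusted p = 0.145).

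Among serotonin receptors every regional difference that passed in WT mice was toward the hippocampus. Htr1a, the inhibitory receptor of principal neurons and of serotonin neurons themselves, was at 6.86, 6.96 and 6.18 in WT cerebellum and at 9.67, 9.61 and 8.98 in WT hippocampus. It was 6.74-fold higher in WT hippocampus (limma adjusted p = 1.92e-05) and 4.48-fold higher in En2-/- hippocampus (limma adjusted p = 0.00016), with no overlap in either genotype. On the authors' processed values the log2 differences of Htr1a were −1.78 and −1.36, and after normexp correction that in WT mice was −2.11, all of which passed. Htr1f, another inhibitory receptor, was 2.39-fold higher in WT hippocampus (limma adjusted p = 0.00739) and 2.40-fold in En2-/- hippocampus (limma adjusted p = 0.00875). On the authors' processed values its differences were −0.12 and −0.08 and did not pass, nor did that in En2-/- mice after normexp background correction (−0.43). In En2-/- mice alone Htr2c passed toward the cerebellum (1.07, SE 0.33, limma adjusted p = 0.0329). That call was lost without the filter on dim probes, without the second or the third En2-/- hippocampus array (0.90 and 1.13) and without the second or the third En2-/- cerebellum array (0.94 and 1.02). Htr5b was at 8.24, 8.23 and 4.36 in WT cerebellum and at 9.79, 8.88 and 8.61 in WT hippocampus. Its mean was 4.43-fold higher in WT hippocampus, but the spread between arrays was wide and the difference did not pass (limma adjusted p = 0.154). Htr2a, Htr3a, Htr5a and Htr7 did not pass in either genotype, and Htr7 had the smallest WT difference of the group, 0.05 with SE 0.21.

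Adrenergic and histamine receptors were divided. Adrb1, the beta receptor through which noradrenaline raises cyclic AMP, was at 8.86, 8.55 and 9.15 in WT cerebellum and at 10.28, 10.57 and 10.13 in WT hippocampus. It was 2.78-fold higher in WT hippocampus (limma adjusted p = 0.000303) and 3.12-fold in En2-/- hippocampus (limma adjusted p = 0.000165). With the mean of both probes the En2-/- difference was −0.45 and did not pass. Its second probe agreed in WT mice (−1.37) and not in En2-/- mice (0.73), where 1 cerebellum array was at 8.34 and the others were at 5.75 and 5.90. Adra1d, a Gq-coupled receptor, was 1.81-fold higher in WT hippocampus (limma adjusted p = 0.0306), and the difference in En2-/- mice did not pass (limma adjusted p = 0.0591). The WT call was lost under 7 of 19 alternatives, with a difference of −0.33 on the authors' processed values, −0.80 with scaling to the 75th percentile, −0.82, −0.90 and −0.85 without the first, the second and the third WT hippocampus array, and −0.81 and −0.56 without the second and the third WT cerebellum array. Adra1b, also Gq-coupled, was 2.61-fold higher in WT cerebellum (limma adjusted p = 0.0083), where it was at 11.16, 11.43 and 10.99 against 9.03, 10.09 and 10.32 in WT hippocampus. With the mean of both its probes the difference was 0.96 in place of 1.38 and did not pass. Hrh1, the Gq-coupled histamine receptor, was 2.01-fold higher in WT cerebellum (limma adjusted p = 0.00804). Hrh3, the histamine autoreceptor, ran from 13.20 to 13.32 in WT cerebellum and from 12.53 to 13.79 in WT hippocampus, and the regions overlapped (0.19, SE 0.30). Neither Adra1b nor Hrh1 passed in En2-/- mice, with differences of 0.56 and 0.59.

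For Adra2a, the inhibitory alpha-2 receptor found on noradrenaline neurons and their targets, the answer depended on the probe. The probe that stood for the gene lies 1325 bases downstream of the coding probe shown above, and was 2.31-fold higher in WT cerebellum (limma adjusted p = 0.00458). Its neighbour 1385 bases downstream gave a log2 difference of 1.29. The coding probe, well above background on all 12 arrays, gave −0.30. The genotype difference in the hippocampus was divided in the same way, at 0.66 and 0.74 for the downstream probes and −0.56 for the coding probe. Adra2c, its relative, had a single probe and did not pass between regions in either genotype (−0.70, SE 0.35 in WT and −0.78, SE 0.35 in En2-/- mice).

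**Figure D2:**
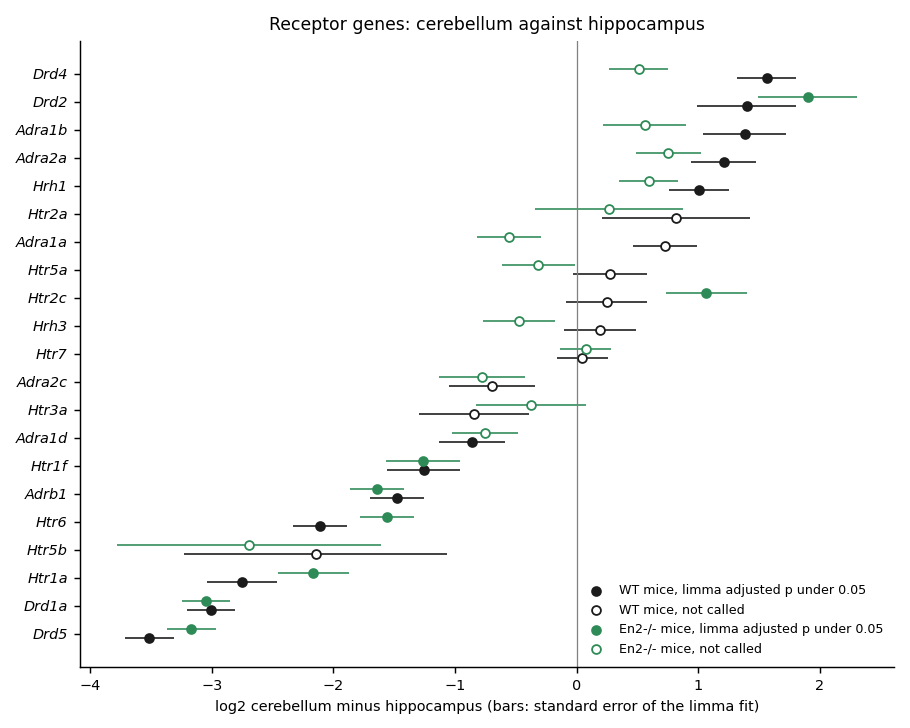
Difference in log2 normalized intensity, cerebellum minus hippocampus (horizontal axis), of the 21 receptor genes tested, in WT (black) and En2-/- mice (green); bars are standard errors of the limma fit and filled points passed an adjusted p of 0.05. Drd5, Drd1a and Htr1a lie far to the hippocampus side in both genotypes, Htr5b has the widest bars, and Drd4 and Drd2 lie furthest to the cerebellum side in WT mice.

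Genotypes were compared with 2 tests. The rank product, the test of the study's methods, forms the 9 possible En2-/- to WT ratios of a region, ranks all genes within each ratio, and takes as differentially expressed those whose ranks are extreme in the same direction, at a permutation P, unadjusted, under 0.01 for cerebellum and under 0.005 for hippocampus. The linear model (limma) compares the difference of the means with the spread between arrays and adjusts for the number of genes. No receptor gene passed limma in either region. In the cerebellum that was 0 of 20 receptor genes, beside 0.66% of all 15598 genes, and in the hippocampus 0 of 21, beside 1.34% of all 14971 genes. At an unadjusted p under 0.05, limma had 4 receptor genes in the cerebellum (Drd4, Drd5, Htr2c and Adra1a) beside 9.3% of all genes, and 4 in the hippocampus (Htr6, Adra1b, Adra1d and Adra2c) beside 19.5% of all genes.

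The rank product called 2 receptor genes in the cerebellum, beside 5.02% of all genes. Htr2c was called higher and Htr5b lower in En2-/- mice, beside 2.38% of all genes called higher and 2.63% lower. In the hippocampus it called 1 receptor gene, Adra1b, as higher. Beside this, 4.13% of all genes were called there, with 1.83% of all genes called higher and 2.3% lower. The median log2 difference over the tested receptor genes was −0.09 for cerebellum and 0.09 for hippocampus, beside −0.03 and 0.05 over all genes. Arrays of the 2 genotypes did not overlap for 5 of 20 receptor genes in the cerebellum, beside 14.7% of all genes, and for 5 of 21 in the hippocampus, beside 26.3%. With 3 arrays against 3, an exact permutation test of a single gene cannot give a two-sided p below 0.1.

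**Figure D3:**
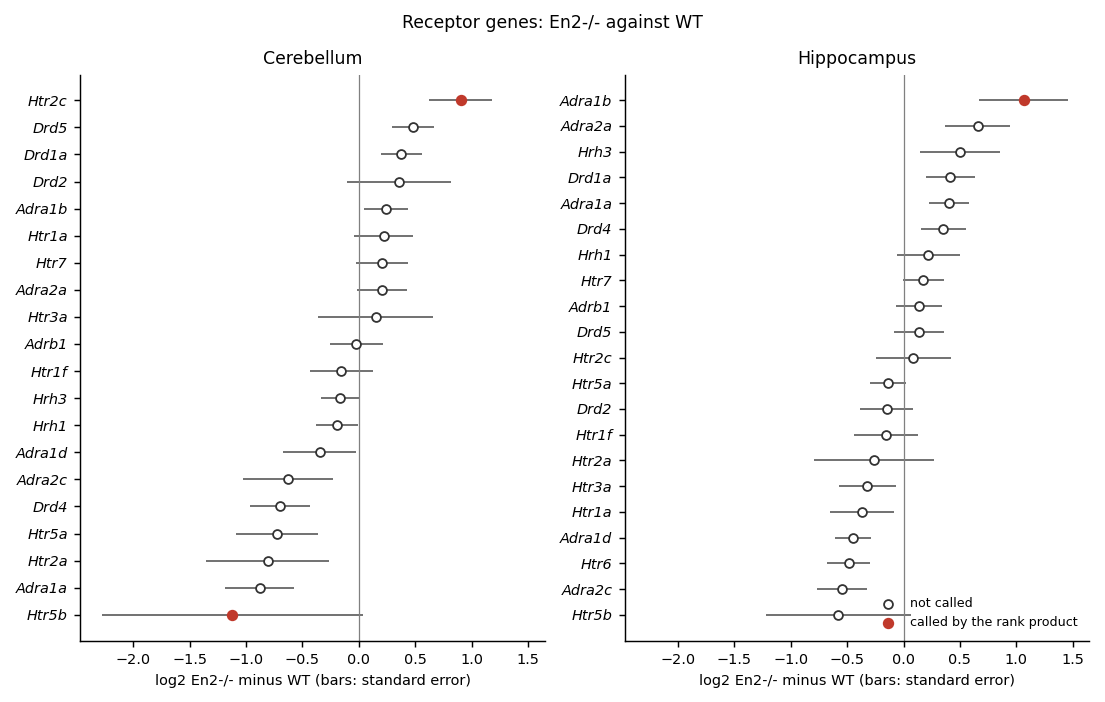
Difference in log2 normalized intensity, En2-/- minus WT (horizontal axis), of the receptor genes tested in the cerebellum (20 genes) and the hippocampus (21 genes); bars are standard errors of the limma fit and red points were called by the rank product. Htr2c, Htr5b and Adra1b are the red points, and the bars of Htr5b in the cerebellum reach past 0.

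Htr2c, the Gq-coupled serotonin receptor that is made in very large amounts by the epithelium of the choroid plexus and also by neurons, was at 9.19, 10.11 and 9.64 in WT cerebellum and at 10.21, 10.80 and 10.65 in En2-/- cerebellum. Every En2-/- array was above every WT array. The mean was 1.87-fold higher in En2-/- cerebellum (0.90 on the log2 scale, SE 0.28, rank product permutation P = 0.00548, limma adjusted p = 0.334). A second probe for Htr2c gave a log2 difference of 0.94, and the third did not rise above background on any array. The call was lost when any of 4 of the 6 cerebellum arrays was left out, with a difference of 0.68 without the first WT array, 0.90 without the third, 0.78 without the second En2-/- array and 0.86 without the third. It was also lost with the mean of all Htr2c probes (0.61) and at a percentage of false prediction under 0.05.

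Genes of the choroid plexus were higher together with Htr2c in En2-/- cerebellum, but not in the hippocampus. The list was chosen with earlier results of these data known. All 7 choroid plexus genes tested had a higher mean in En2-/- cerebellum. The rank product called 3 of them higher, beside 2.38% of all genes, namely Ttr (0.89), Otx2 (0.90) and Aqp1 (0.87 on the log2 scale). Ttr encodes transthyretin, Otx2 is the transcription factor of choroid plexus epithelium and Aqp1 is its water channel. The mean log2 intensity over the 7 genes was between 10.29 and 10.61 on the WT arrays and between 10.82 and 11.07 on the En2-/- arrays, and all 7 were well above background on all cerebellum arrays. Among WT cerebellum arrays the third had the highest choroid plexus mean, whereas the second had the highest Htr2c. In the hippocampus the same mean was 10.55, 11.16 and 11.98 on the WT arrays and 12.66, 8.39 and 10.79 on the En2-/- arrays. There all 7 genes had a lower mean in En2-/- mice, and the rank product called Ttr and Aqp1 lower, beside 2.3% of all genes. Htr2c there was at 8.69, 9.51 and 10.004 in WT and 9.69, 9.17 and 9.62 in En2-/- mice, with overlapping groups (0.09, SE 0.33, limma adjusted p = 0.906). Within each genotype of the hippocampus, Htr2c put the 3 arrays in the same order as the choroid plexus mean. The part of choroid plexus tissue in the Htr2c difference was not tested.

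Adra1b was at 9.03, 10.09 and 10.32 in WT hippocampus and at 11.08, 10.23 and 11.31 in En2-/- hippocampus. The second En2-/- array lay within the WT range. The mean was 2.09-fold higher in En2-/- hippocampus (1.06, SE 0.40, rank product permutation P = 0.00331, limma adjusted p = 0.206). Within each slide the difference was 2.05, 0.15 and 0.99, and the rank product over these 3 within-slide pairs, with the slide as a block, called no receptor gene in the hippocampus. The call was also lost without the first or the third En2-/- array (0.96 and 0.84) and without the first WT array (0.67). The other Adra1b probe lies on another part of the gene, was well above background on 1 WT and no En2-/- hippocampus array, and gave −1.17, so that the mean of both probes was −0.053.

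Genes that mark the thalamus, which lies under the hippocampus and is rich in alpha-1B receptor transcript, were set beside Adra1b. All 6 had a higher mean in En2-/- hippocampus, by 0.67 to 1.39 on the log2 scale. The rank product called Tcf7l2, the transcription factor of thalamic neurons (1.39), beside 1.83% of all genes called higher. The list was chosen with earlier results of these data known, so that 6 of 6 is not an independent result. The mean log2 intensity of the 6 genes was between 9.95 and 10.66 on WT hippocampus arrays and between 11.003 and 11.45 on En2-/- hippocampus arrays, with all 6 well above background throughout. All 6 also had a higher mean in WT cerebellum than in WT hippocampus, and 3 of them passed (limma, adjusted p under 0.05). Within a genotype the 2 did not always go together. The En2-/- array with the lowest Adra1b had the lowest thalamus mean of the 3, whereas the WT array with the highest Adra1b, at 10.32, also had the lowest thalamus mean, at 9.95. The part of thalamic tissue in the Adra1b difference was not tested.

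**Figure D4:**
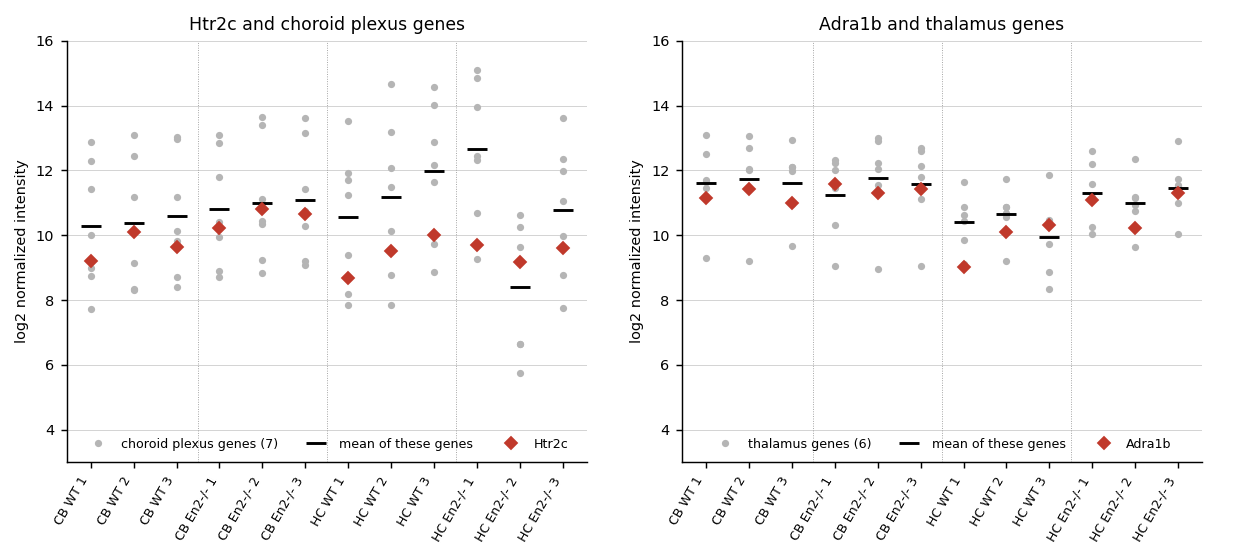
Log2 normalized intensity (vertical axis) on each of the 12 arrays (horizontal axis: CB cerebellum, HC hippocampus, with replicate number) of Htr2c beside 7 choroid plexus genes (left) and of Adra1b beside 6 thalamus genes (right); red diamonds are the receptor, grey points the single marker genes and black dashes their mean. In the cerebellum Htr2c and the choroid plexus mean are both higher on all En2-/- arrays, and in the hippocampus Adra1b and the thalamus mean both have higher means in En2-/- mice.

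Htr5b, a serotonin receptor known from the habenula, hippocampus and inferior olive, was called lower in En2-/- cerebellum although its groups overlapped. It was at 8.24, 8.23 and 4.36 on the WT arrays and at 7.76, 4.48 and 5.23 on the En2-/- arrays. Both genotypes held high and low arrays, differing by more than 3 on the log2 scale. The mean was 0.459 times that of WT (−1.12, SE 1.16, rank product permutation P = 0.0011, limma adjusted p = 0.865). The call was lost without the first or the second WT array (−0.47 and −0.48) and without the second En2-/- array (−0.45). In the hippocampus Htr5b was at 9.79, 8.88 and 8.61 in WT and 6.92, 9.40 and 9.22 in En2-/- mice (−0.58, SE 0.64, limma adjusted p = 0.641).

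Other receptor genes came close to a call without reaching it. Adra1a, a Gq-coupled receptor, was at 6.58, 5.69 and 5.66 in WT and at 5.13, 4.73 and 5.44 in En2-/- cerebellum. The groups did not overlap (−0.88, SE 0.31, rank product permutation P = 0.0107, limma adjusted p = 0.408), and a second probe gave −0.54. The rank product called Adra1a lower there among genes well above background on every array. It also did so without the third En2-/- array (−1.05), the second WT array (−1.03) or the third WT array (−1.04). In the hippocampus Adra1a was at 5.48, 5.03 and 5.24 in WT and at 5.67, 5.73 and 5.56 in En2-/- mice, again without overlap and in the other direction (0.40, SE 0.18, limma adjusted p = 0.260). Htr2a, another Gq-coupled receptor, was at 6.67, 5.62 and 8.02 in WT and at 5.99, 6.35 and 5.54 in En2-/- cerebellum. The groups overlapped (−0.81, SE 0.54, rank product permutation P = 0.0137, limma adjusted p = 0.739). It was called lower among genes well above background on every array, without the second En2-/- array (−1.003) and without the second WT array (−1.39), and the difference was −0.18 without the third WT array. Drd4 had differences of the same signs as Adra1a without a call. It was at 7.55, 7.26 and 7.98 in WT and at 6.84, 6.57 and 7.29 in En2-/- cerebellum, so that the third En2-/- array lay within the WT range. Within each slide the difference was −0.71, −0.70 and −0.69. The linear model, which did not use the slide, gave −0.70 (SE 0.27, limma adjusted p = 0.472). In the hippocampus it was at 6.00, 5.94 and 6.16 in WT and at 6.25, 6.17 and 6.74 in En2-/- mice, with no overlap (0.35, SE 0.20, limma adjusted p = 0.357).

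Whether a genotype effect differed between the regions was tested with the interaction term of the 12-array model. None of the 20 receptor genes tested in both regions passed, beside 0.116% of all 14684 genes, and 2 had an unadjusted p under 0.05, beside 11.9% of all genes. These were Adra1a (effect in the cerebellum minus effect in the hippocampus −1.28, limma adjusted p = 0.306) and Drd4 (−1.05, limma adjusted p = 0.335). The interaction was 0.82 for Htr2c (limma adjusted p = 0.482) and −0.82 for Adra1b (limma adjusted p = 0.490), so that neither call was shown to be limited to one region.

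The dopamine receptors of the D1 type were a little higher in En2-/- cerebellum on every array. Drd5 was at 7.19, 7.44 and 7.16 against 6.68, 6.92 and 6.76 in WT (0.48, SE 0.19, limma adjusted p = 0.473). Drd1a was at 5.20, 5.21 and 5.31 against 4.97, 4.66 and 4.95 (0.38, SE 0.18, limma adjusted p = 0.609). Neither passed, and the second Drd5 probe was not well above background on any cerebellum array. In the hippocampus the groups of both genes overlapped. Hrh3 was at 13.09, 13.02 and 13.14 in En2-/- and at 13.32, 13.22 and 13.20 in WT cerebellum, a difference of −0.17 (SE 0.17) that did not pass although the groups did not overlap.

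In the hippocampus the groups also did not overlap for Adra1d and Adra2c, both lower in En2-/- mice. Adra1d was at 8.09, 7.92 and 8.02 in WT and 7.57, 7.71 and 7.40 in En2-/- hippocampus (−0.45, SE 0.16, limma adjusted p = 0.199). Adra2c, the alpha-2 receptor that limits catecholamine release, was at 11.52, 11.10 and 11.19 in WT and 10.34, 10.96 and 10.86 in En2-/- hippocampus (−0.55, SE 0.22, limma adjusted p = 0.229). In the cerebellum Adra2c was at 11.07, 11.05 and 9.60 in WT and 10.02, 9.64 and 10.18 in En2-/- mice, and the third WT array was the lowest of all. Without it the rank product called Adra2c lower (−1.11, beside −0.63 with all arrays), as it did on the authors' processed values (−0.59) and after normexp background correction (−0.60). That array was the lowest of the cerebellum arrays for 9 of the 20 receptor genes and for 20.6% of all genes. Htr5a, whose probe lies 329 kb from the En2 probe on chromosome 5, had a difference of −0.73 in the cerebellum (SE 0.36, limma adjusted p = 0.623) and −0.14 in the hippocampus (SE 0.16, limma adjusted p = 0.657).

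The genes that supply and relay these transmitters were examined beside the receptors, as 47 genes for synthesis, transport and breakdown, G protein alpha subunits, adenylyl cyclases and phospholipase C beta, and receptor kinases and arrestins. None passed limma between genotypes in either region, and the rank product called 1 of 44 tested genes in the cerebellum, beside 5.02% of all genes, and 1 of 41 in the hippocampus, beside 4.13%. Slc6a3, the dopamine transporter of dopamine neurons, was called higher in En2-/- cerebellum, where it was at 5.29, 12.36 and 11.62 against 5.29, 8.20 and 6.88 in WT (2.97, limma adjusted p = 0.682). The first array of each genotype was at the same level. On the 3 slides the Slc6a3 difference was 0.00, 4.17 and 4.74. Over the same slides Th, which makes the precursor of dopamine and noradrenaline, differed by −0.36, 1.15 and 1.18, and Slc18a2, the vesicular monoamine transporter, by 0.07, 0.80 and 0.80. Neither of these passed (limma adjusted p = 0.688 and 0.691, rank product permutation P = 0.0190 and 0.0369). Among the 16 genes of synthesis, transport and breakdown tested there, Dbh, Slc6a2 and Slc18a1 were lower in En2-/- cerebellum without overlap (−0.81, −0.73 and −0.54). Ddc was higher without overlap in En2-/- cerebellum (0.55) and in En2-/- hippocampus (0.72). Of all genes, 14.7% did not overlap in the cerebellum and 26.3% in the hippocampus. The part of dopamine neurons in the Slc6a3 difference was not tested. Plcb1, the phospholipase that Gq activates, was called lower in En2-/- hippocampus, at 11.63, 10.65 and 10.74 against 11.93, 11.60 and 12.79 in WT (−1.10, limma adjusted p = 0.176).

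By list, 10 of 16 tested genes of synthesis, transport and breakdown had a higher mean in En2-/- cerebellum (median 0.06) and 10 of 12 in En2-/- hippocampus (median 0.41). For G protein alpha subunits it was 6 of 8 and 2 of 9 (medians 0.13 and −0.28), for cyclases and phospholipases 9 of 13 and 3 of 13 (0.11 and −0.26), and for receptor kinases and arrestins 2 of 7 and 2 of 7 (−0.15 and −0.07). The medians over all genes were −0.03 in the cerebellum and 0.05 in the hippocampus.

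Between regions the supply genes differed strongly. Slc6a4, the serotonin transporter, was at 9.79, 10.22 and 9.89 in WT cerebellum and was not well above background on any hippocampus array, which made it at least 46.3-fold higher in WT cerebellum. The bound was at least 21.1-fold for Slc6a2, the noradrenaline transporter, and at least 14.6-fold for Th. These bounds hold on the quantile normalized values used here and were not computed under the alternatives. Of 17 tested genes of synthesis, transport and breakdown, 9 were higher in WT cerebellum, beside 17.3% of all genes, and 2 in WT hippocampus, beside 14.7% (limma, adjusted p under 0.05). All 5 genes that mark serotonin neurons were higher in WT cerebellum, Tph2 by 3.74 on the log2 scale. The cell bodies of serotonin and noradrenaline neurons lie in the brainstem, and how much brainstem tissue the cerebellum samples held was not tested.

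**Figure D5:**
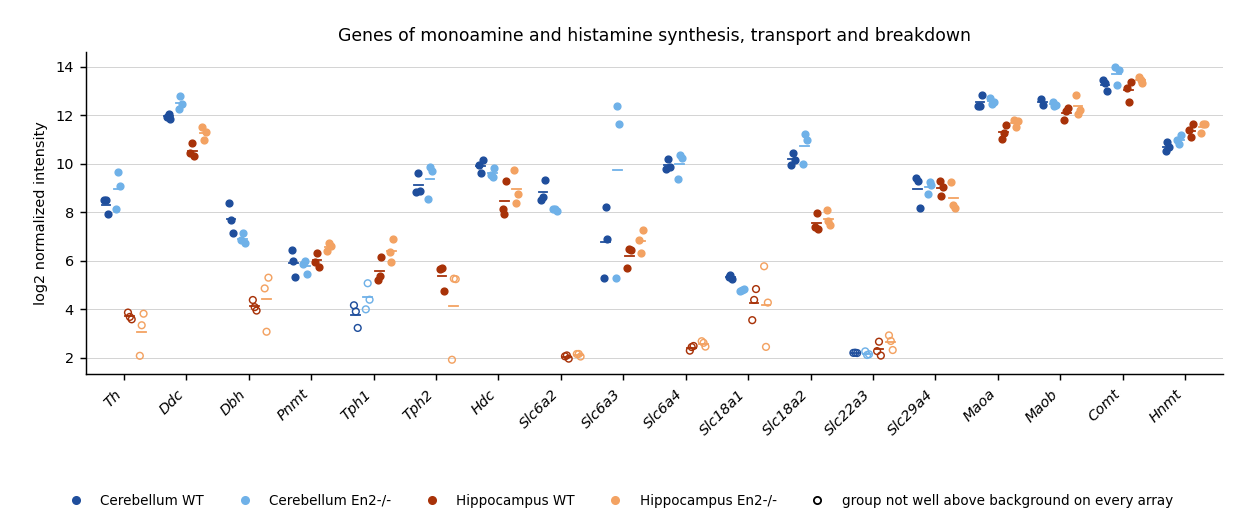
Log2 normalized intensity (vertical axis) of the 18 genes of monoamine and histamine synthesis, transport and breakdown on each of the 12 arrays; points are arrays, dashes are group means and open points mark groups with at least 1 array not well above background. Th, Slc6a2 and Slc6a4 are high in the cerebellum and open in the hippocampus, and Slc6a3 in En2-/- cerebellum runs from 5.29 to 12.36.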

How the data were processed

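RNA of high integrity from 1 tissue of 1 mouse was labelled with Cy3 and hybridised to each one-colour Agilent array, and the authors deposited the scanner output of Feature Extraction, whose processed signal is an intensity corrected for background within each array and not normalized between arrays. The authors also deposited log2 values of 27534 probes after quantile normalization and a filter on low-quality probes, and these served as an alternative. Here log2 of the processed signal, without control spots and spots marked as outliers, was quantile normalized over 12 arrays, and replicate spots were averaged. Each gene was represented by its brightest probe, by the mean of all 12 arrays. Testing in a region required that the 3 arrays of WT or of En2-/- mice all be well above background. Gene names came from the annotation in the cerebellum files, which for 4691 of 43379 spots differs from that in the hippocampus files and for no receptor probe. The rank product was written in Python 3.11.15 after the method the authors used, with 100 permutations, and the linear models used limma 3.58.1 in R 4.3.3 with Benjamini-Hochberg adjustment. Both were tested on simulated data. Regional and interaction contrasts came from 1 fit over 12 arrays, and genotype contrasts from the 6 arrays of a region.

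Replicate numbers matched the 3 slides, each of which held 1 array of every group, whereas the position on the slide matched the group, so that position and group cannot be told apart. Deviations of arrays with the same number correlated at −0.050, 0.111 and 0.0096 between genotypes in the cerebellum and at −0.172, 0.0912 and −0.0635 in the hippocampus, and the slide was not used as a block in the tests reported. The labels do not say which arrays of the 2 regions came from the same mouse, so that the regional and interaction tests took no account of it. The p-values measure the spread between these arrays. The receptor genes, the pathway lists and the marker lists were chosen with earlier results of these data known. All receptor genes were accounted for, with full statistics for those called, and pathway genes were named where called between genotypes. Regional values of supply genes, the marker genes named and the uncalled pathway genes named were chosen after their values were seen.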

Additional observations from a re-analysis of the deposited data

How the results depend on the processing

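No receptor gene passed limma between genotypes, in either region or in the interaction, under any alternative run. The rank product calls rested on few arrays. In the cerebellum 2 receptor genes were called, 4 among genes well above background on every array, 1 with the mean of all probes of a gene, 0 at a percentage of false prediction under 0.05, and 0 to 4 with 1 array left out (0 without the first WT array, 1 without the second En2-/- array, and 4 without the second WT array, which added Htr2a, Htr5a and Adra1a and lost Htr5b). In the hippocampus 1 was called, 0 without the filter on dim probes, with the mean of all probes or at a percentage of false prediction under 0.05, and 0 to 1 with 1 array left out. Adra1b reversed to −0.053 with the mean of both probes. Over all genes the rank product called 783 genes for cerebellum and 619 for hippocampus, and 189 and 173 at a percentage of false prediction under 0.05. For limma, the 103 genes of the cerebellum became 62 with normexp, 65 on the authors' values, 43 without the filter, 64 among genes well above background on every array, 160 with all 12 arrays in the fit, and 41 to 93 with 1 array left out. The 201 genes of the hippocampus became 68 without the filter and 36 to 139 with 1 array left out, and the 17 of the interaction became 9 with the mean of all probes and 1 to 18 with 1 array left out.

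With the replicate number, which is the slide, as a block, limma called 69 genes in the hippocampus in place of 201 and the rank product called 0 receptor genes there in place of 1, and the counts of the other comparisons stayed within 1.5 times. Between regions 10 to 14 receptor genes were called in WT mice under the alternatives, in place of 12, and 8 of the 12 passed under each alternative that could be fitted, the exceptions being Adra1b, Adra1d, Drd2 and Htr1f. The 8 include Adra2a, whose coding probe gave −0.30 and was used alone in no alternative. They also include Htr6, which entered the test through WT hippocampus alone. In En2-/- mice 7 to 12 passed, and Drd1a, Drd2, Drd5 and Htr1a passed under all. The causes of these changes were not tested. Signals near background limit what can be said of the 9 receptor genes not detected, and 3 arrays a group limit the precision of all differences.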
